A study of Nicotiana tabacum with 39 samples.

Results

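The 100 transcripts described here are the most abundant ones whose level stayed within a limited range over a de-etiolation course of tobacco leaves (Nicotiana tabacum). They are called members below. Each library's counts were divided by its total and expressed as CPM, the usual fixed multiple of a transcript's share of its library, and CPM were averaged over the 3 libraries of each of 13 groups. A transcript qualified if its highest group mean was below 3 times its lowest, and the 100 qualifying transcripts with the highest mean over the 13 groups were kept. Of 53725 transcripts in the files, 24811 met the range limit and 100 are members. They were thus chosen by their measured group means, so levels, ranges and differences between groups are a description of the members and support nothing by themselves. Members are numbered from 1 to 100 by mean CPM. These ranks order counts and not molecules, since transcript lengths are not in the files.

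The study asks how the leaf transcriptome changes while etioplasts become chloroplasts. The plants grew in soil under long days (16 h light) until they were nearly mature, and a control group of 3 libraries received no dark treatment. The other 12 groups of 3 libraries came from whole plants kept in extended darkness, harvested at its end (0 min) or after the return to light, at 5, 10 and 30 min, at 1, 2, 4, 8, 16, 40 and 64 h, and last at 6720 min, on the fifth day. For each library, mid-leaf tissue of 2 young leaves per plant was pooled over 3 plants. The labels call each pool a biological repeat but do not say whether pools came from separate experiments, so p-values measure the spread between pools. No leaves kept dark were sampled at the light times, and no clock time for the control harvest was found in the labels. Light, time in light and time of day therefore cannot be told apart in most comparisons. Harvests at 16, 40 and 64 h and 6720 min lie whole days apart, so they share a time of day if the return to light did. Among them light and time in light still cannot be told apart. The labels name neither cultivar nor length of darkness.

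In de-etiolation, leaves that were pale in the dark turn green: light is sensed by photoreceptors, chlorophyll and photosynthetic proteins are made, and plastids build thylakoid membranes. The transcripts of photosynthetic proteins are among the most abundant in green leaves and respond strongly to light. Other abundant plant transcripts, such as those for translation factors, ubiquitin or cytosolic enzymes of primary metabolism, are often chosen as reference genes because their levels move less. Which of these the members encode cannot be said from the files. They carry NCBI GI numbers only, none of which (0 of 53725) matched the gene table used for names. No gene name, position or sequence is therefore given, the tissue label could not be checked against marker genes, and pathway lists were not counted. In these pooled leaves, fewer cells of a type and less RNA per cell cannot be told apart.

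Library totals ran from 15844109 to 37269515 counts with a median of 21130744. No member had fewer than 2851 counts in any library, and counting error was small, with a median of 0.797% of a member's count. Replicate 2 stood apart among the members in several groups. At 0 min it was at least 1.5-fold above or below the mean of the other 2 libraries for 36 of the 100 members, against 18 for replicate 1 and 10 for replicate 3. At 5 min the count for replicate 2 was 43, at 10 min 24, at 1 h 33 and at 8 h 31. At 2, 16, 40 and 64 h it was at most 4. Over all transcripts tested the share for replicate 2 was 25.2% at 0 min, 35.3% at 5 min, 23.3% at 10 min, 30.3% at 1 h and 23.8% at 8 h. Among the 100 most abundant transcripts beyond the range limit the numbers were 50, 52, 24, 29 and 60 in the same order. The directions were unlike. At 0 min replicate 2 was higher in 33 members and lower in 3, and beyond the limit in 48 and 2. Over all transcripts tested it was higher in 1969 and lower in 8563. At 1 h it was higher in 25 members and lower in 8, against 2373 and 10235 of all. At 8 h it was higher in 8 members and lower in 23, against 5497 and 4418 of all. The share, course and call counts below are therefore also given for the same members without replicate 2, a choice made after the data were seen.

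Together the members held 8.84% of all counts on average over the 13 groups. Their summed share was 9.06 ± 0.72% in control and 8.60 ± 1.49% at 0 min (SD, n = 3). It was highest early in light at 1 h, with 9.45 ± 1.17%, and then lower at 2 h (8.27 ± 0.66%), 4 h (8.26 ± 0.63%) and 8 h (7.97 ± 0.64%). By replicate number this differed. In replicate 3 the share was 8.68% at 1 h and 9.04% at 2 h, and in replicate 1 it was 9.24% at 30 min and 8.87% at 1 h. The mean at 8 h was the lowest of all, but within replicates 1 and 3 the lowest libraries were at 0 min (7.65%) and 10 min (7.66%), and 8 h was lowest in replicate 2 only (7.24%). Without replicate 2 the lowest mean was that of 0 min, at 7.74%. The mean was then 7.84% at 10 min, 8.74% at 30 min, 8.77% at 1 h, 8.46% at 2 h and 8.34% at 8 h. The difference of 8 h from 1 h was then -0.435 percentage points, against -1.48 with all libraries, and with TMM-scaled CPM and no replicate 2 it was 0.162 points, so its direction turned. From there the mean was 8.36 ± 0.44% at 16 h and 9.12 ± 0.32% at 40 h. The last groups held 9.77 ± 0.46% (64 h) and 9.55 ± 0.95% (6720 min). At 8 h the libraries held 8.38, 7.24 and 8.30%, and at 64 h 9.24, 10.02 and 10.06%. The 3 libraries at 64 h were thus all above the 3 at 8 h. At 0 min the libraries held 7.65, 10.3 and 7.83%, and in control 8.503, 9.88 and 8.81%, so these groups overlapped.

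The summed share moved less than that of other abundant transcripts. The highest group mean was 1.23 times the lowest, whereas for the 100 most abundant transcripts beyond the range limit it was 1.82 times, from 10.1 ± 0.84% at 8 h to 18.5 ± 0.62% at 64 h. This difference follows from how both sets were chosen. Both sums had their lowest mean at 8 h and their highest at 64 h with all libraries. Without replicate 2 both were lowest at 0 min (7.74% and 9.42%), and the ratios were 1.25 and 1.98. Within each replicate number the members' share was higher at 64 h than at 8 h, by 0.862, 2.78 and 1.76 percentage points in replicates 1, 2 and 3. Without replicate 2 the mean at 64 h was 9.65%. With library sizes scaled by edgeR's trimmed-mean (TMM) factors, which remove shifts shared by most transcripts, the members' summed CPM came to 7.84% of the scaled total at 8 h and 10.7% at 64 h.

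**Figure D1:**
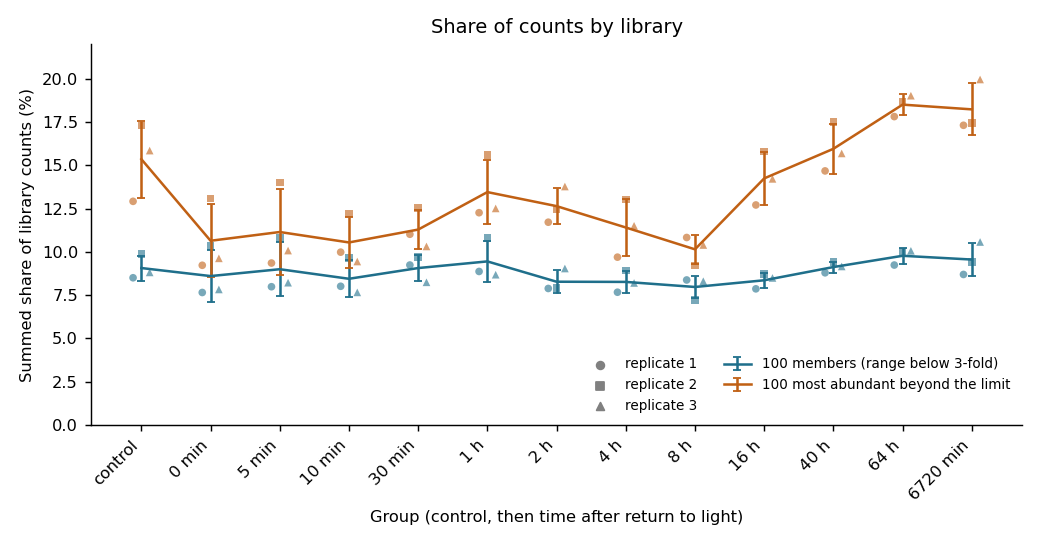
Summed share of library counts in percent (vertical axis) for each group (horizontal axis), for the 100 members (blue) and the 100 most abundant transcripts beyond the range limit (orange). Symbols are libraries, lines join means of 3 and bars are SD. The members stay between group means of 7.97% and 9.77%, and the other set between 10.1% and 18.5%.

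The difference between 64 h and 8 h was the balance of opposite movements. Between these times 60 members had a higher mean and together gained 2.78 percentage points, while 40 had a lower mean and together lost 0.975 points. The 10 members of highest abundance accounted for 1.03 of the net 1.80 points. Their own sum moved more than that of all members, from 1.65% of counts at 8 h to 2.84% at 6720 min, a ratio of 1.72. Between control and 0 min, 47 members had higher means (1.10 points in all) and 53 lower means (-1.57 points in all). The net difference was -0.464 points with all libraries and -0.917 without replicate 2. By replicate number it was -0.850, 0.443 and -0.984 points in replicates 1, 2 and 3. With TMM-scaled CPM the net difference was larger, at -1.78 points with all libraries and -2.49 without replicate 2.

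Limited range did not mean constant level. The ratio of highest to lowest group mean had a median of 2.29 over the members and ran from 1.29 to 2.98. It was below 1.5 in 5 members, from 1.5 to 2 in 25, from 2 to 2.5 in 33 and from 2.5 to 3 in 37. Only 39 of the members were among the 100 most abundant transcripts of the series, and 143 more abundant transcripts beyond the limit were passed over down to the last member. The 3 members nearest the limit had ratios of 2.98, 2.98 and 2.98, and the 3 nearest transcripts outside it had 3.02, 3.02 and 3.05. For the same members without replicate 2 the ratio ran from 1.31 to 3.799 with a median of 2.48, and 83 were below 3. Applied to single libraries in place of group means, the limit of 3 would have kept 43 of the 100.

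The member with the lowest ratio, of rank 80, had its lowest mean in control (457 ± 89.6 CPM) and its highest at 0 min (588 ± 58.6 CPM, SD, n = 3). Its control libraries stood at 559.7, 395 and 415 CPM and those at 0 min at 558, 549 and 655 CPM, so the groups overlapped. The next lowest ratios, 1.35 and 1.37, belonged to ranks 81 and 75, which follow each other in the deposited order. Near the other end, rank 52 had a ratio of 2.98, with 1166 ± 463 CPM at 1 h and 391 ± 92.0 CPM at 16 h. Its libraries at 1 h were far apart, at 1028, 1682 and 787 CPM, all above those at 16 h (314, 493 and 366 CPM).

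Members reached their extremes at different times. The highest group mean fell in control for 6 members, between 0 min and 1 h for 32, between 2 and 16 h for 26 and between 40 h and 6720 min for 36. The lowest fell in control for 8, between 0 min and 1 h for 31, between 2 and 16 h for 40 and between 40 h and 6720 min for 21. The single groups with most maxima were 6720 min (20 members) and 1 h (15), and those with most minima were 8 h (23), 6720 min (19) and 10 min (16). At 6720 min 50 members were above and 50 below their own mean over the groups. Without replicate 2 the minima at 8 h were 7 in place of 23, those at 0 min 10 in place of 4, and the maxima at 1 h 7 in place of 15. The maxima at 6720 min were then 27 and the minima there 22.

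Over the 4 steps from control to 0 min, 1 h, 8 h and 6720 min, the most frequent course was down, up, down and up, in 18 members. Next came up, up, down and up in 17. These courses differ only in the dark step, and they held 8 of the 10 members of highest abundance, ranks 1, 2, 3, 4, 5, 8, 9 and 10. In all, 43 members went down from 1 h to 8 h and up from 8 h to 6720 min, 30 went up and then down, 15 up in both steps and 12 down in both. Without replicate 2 these counts were 39, 31, 13 and 17, and the first courses named held 20 and 12 members. Rank 1 shows the first course in its means. Its libraries stood at 3663, 4638 and 3699 CPM in control and 3048, 4949 and 2814 CPM at 0 min. They stood at 3453, 4649 and 3322 CPM at 1 h, 2450.2, 1863 and 2467 CPM at 8 h, and 4147, 3501 and 5044 CPM at 6720 min. The libraries at 0 min overlapped those in control and at 1 h. Neither of these first steps passed the test (log2 -0.35, edgeR adjusted p = 0.356, and 0.13, edgeR adjusted p = 0.805). All 3 libraries at 8 h were below all of those at the other times just given.

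A principal component analysis of the members' log2 group means, centred on each member, summarised these courses. The first component held 54.6% of the variance and set 0 min to 2 h (negative) against control and 4 h to 6720 min (positive), with 48 members loading positively and 52 negatively. The second held 26.3% and set 2 to 16 h and control against the other groups, with 8 h at one end and 6720 min at the other. Without replicate 2 the components held 55.1% and 24.6%, with the same sign in each group except 40 h on the second, whose low end was then 4 h. Both components come from the values that chose the members.

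**Figure D2:**
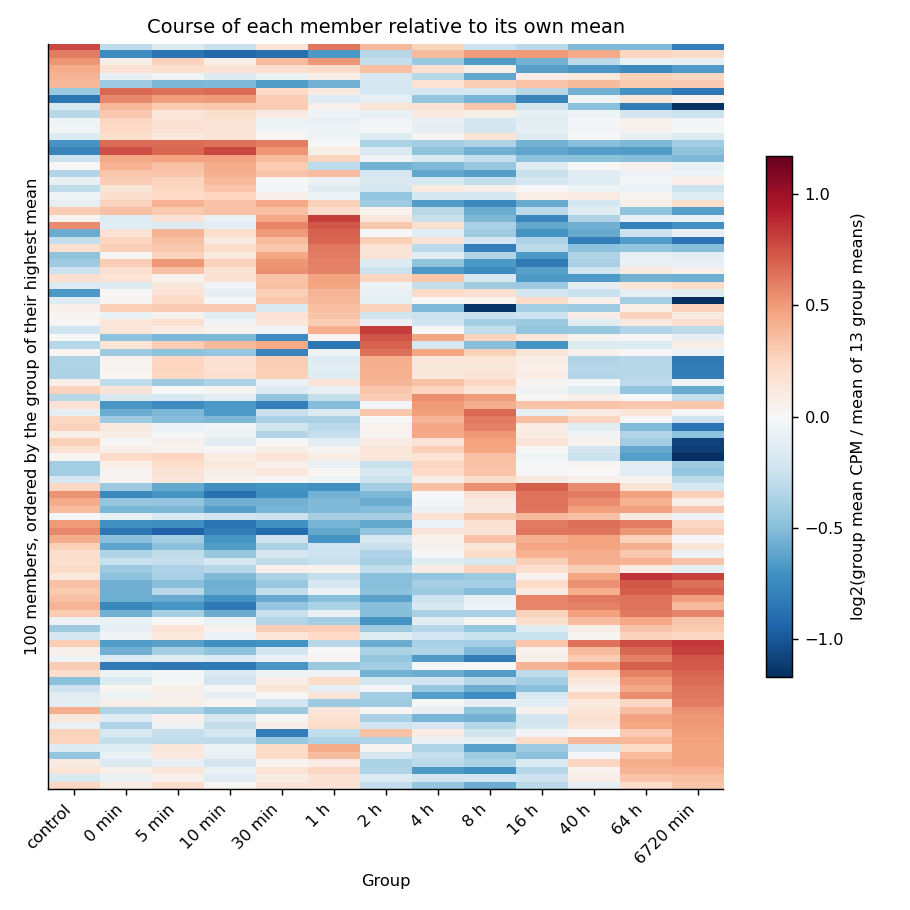
Each row is 1 of the 100 members and each column 1 group. Colour gives log2 of the group mean CPM over the member's mean of 13 groups (red above, blue below). Rows are ordered by the group of the highest mean, so maxima run down the diagonal, with 32 members highest between 0 min and 1 h and 36 between 40 h and 6720 min.

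Differences between groups were tested with edgeR's quasi-likelihood test on all 42181 transcripts that passed a filter on low counts, and all 100 members passed it. Changed, rose and fell stand for a Benjamini-Hochberg adjusted p below 0.05 in that test. Log2 differences come from this fit and are TMM-scaled, and CPM are per library total. Because the range limit used the same group means, nothing is read from the members' counts against the share over all transcripts given beside them. Percentages of all transcripts beside a count come from the fit of all libraries with TMM. Counts without a replicate or library come from other fits. The shares over all transcripts in those fits are not given, so such counts are not to be set against these percentages. Scaling by library size only raised the median of all transcripts by 0.23 (log2) at 0 min against control and lowered it by 0.22 at 6720 min against 0 min. The F test over the 11 light times found that 77 of the 100 members changed at some time after 0 min, where 83.9% of all transcripts did. Without replicate 2 it found 92, without replicate 1 57 and without replicate 3 49. All 100 abundant transcripts beyond the range limit changed by the F test. They were chosen for a range of at least 3-fold between the same group means, so this was largely set by the choice and is no test against the members.

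At the end of darkness 43 members differed from control, of 49.6% of all transcripts. In 7 the level rose (25.6% of all) and in 36 it fell (24.0% of all), and 3 and 18 of these differed at least 2-fold (12.3% and 11.4% of all). With library size only 4 and 7 did (7670 and 3155 of all transcripts). The split was then 14 up and 33 down, or 29.8% up in place of 16.3%, and over all transcripts 14367 up and 6644 down. Without replicate 2 53 members differed, and without replicate 3 24 did. Rank 44 had the highest rise. Its libraries stood at 508, 445 and 429 CPM in control and at 1404, 1267 and 1307 CPM at 0 min, a difference of 1.30 on the log2 scale (SE 0.12 and edgeR adjusted p = 5.50e-10). The groups were far from overlapping, and by 8 h the member was back at 534 ± 61.8 CPM. Rank 16 rose from 726 ± 301 to 1944 ± 303 CPM (1.21 on the log2 scale with SE 0.25 and edgeR adjusted p = 0.000172).

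The steepest falls in darkness were those of ranks 26 and 76. Rank 26 stood at 1490.2, 1214 and 1457 CPM in control and at 427, 534 and 604 CPM at 0 min (-1.63 on the log2 scale with SE 0.21 and edgeR adjusted p = 1.69e-07). It was at 617 ± 87.2 CPM at 1 h, 1039 ± 211 CPM at 8 h and 1443 ± 39.4 CPM at 16 h, beside 1387 ± 151 CPM in control. Rank 76 went from 784 ± 98.0 to 311 ± 32.3 CPM (-1.56 on the log2 scale with SE 0.16 and edgeR adjusted p = 2.52e-09) and stood at 731 ± 53.7 CPM at 8 h. Of the 36 members that fell in darkness, 28 were higher at 6720 min than at 0 min, and 7 differed from control at 6720 min, with 5 lower and 2 higher. Of all 10122 transcripts that fell in darkness, 59.4% were higher at 6720 min than at 0 min and 48.5% differed from control. Without replicate 2, 48 members fell, 36 of them were higher at 6720 min and 18 differed from control then (10 lower, 8 higher). These comparisons share the 0 min or control libraries, so the counts are given side by side only.

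In the first 10 min no member changed (0 at 5 min and 0 at 10 min, also by DESeq2), where 0 and 0.00474% of all transcripts did. At an unadjusted p below 0.05 there were 0 members at 5 min and 0 at 10 min. At 30 min 1 member fell (of all transcripts 5.89% changed, 2.76% up and 3.12% down), with 8 members at an unadjusted p below 0.05 (18.6% of all). This was rank 56, at 451, 668 and 555 CPM at 0 min and 339, 340.0 and 400.3 CPM at 30 min (-0.68 on the log2 scale with SE 0.18 and edgeR adjusted p = 0.0165). All 3 later libraries were below the earlier ones. No member was called at 30 min (0 in each case) without replicate 1, 2 or 3 of all groups, or without replicate 2 of 0 min or replicates 1 or 2 of 30 min. At 1 h 11 members changed (25.6% of all), 4 up and 7 down. That count was 3 without replicate 1, 14 without replicate 2, 4 without replicate 3, 19 without replicate 2 of 0 min only and 7 without replicate 1 of 1 h only.

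At 2 h 21 members differed from 0 min (40.4% of all transcripts), 11 higher (19.7% of all) and 10 lower (20.7% of all). The steepest rises were those of ranks 35 and 49, neighbours in the deposited order. Rank 35 stood at 549, 655 and 614 CPM at 0 min and at 1333, 1311 and 1579 CPM at 2 h (1.29 on the log2 scale with SE 0.18 and edgeR adjusted p = 5.66e-07). Rank 49 rose by a difference of 1.14 on the log2 scale (SE 0.19 and edgeR adjusted p = 9.74e-06). Rank 54 fell most, from 1035 ± 81.4 to 509 ± 25.5 CPM (-0.95 on the log2 scale with SE 0.13 and edgeR adjusted p = 4.61e-07). The count at 2 h was 10 without replicate 1, 34 without replicate 2, 9 without replicate 3 and 12 without replicate 3 of 2 h only.

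At 4 h 29 members had changed (48.4% of all transcripts), 18 up and 11 down, and at 8 h 39 (51.5% of all), 25 up (25.2%) and 14 down (26.3%). With library size only the split at 8 h was 22 up and 26 down (9354 and 11642 of all transcripts), so the members' more frequent direction turned. Rank 38 rose most by 8 h, from 548 ± 71.8 CPM to 1311 ± 171 CPM (1.32 on the log2 scale with SE 0.17 and edgeR adjusted p = 1.66e-07). Its libraries at 8 h stood at 1497, 1162 and 1273 CPM, all above those at 0 min (630.3, 497 and 518 CPM), and by 16 h it was at 766 ± 148 CPM. Rank 68 fell most, from 494, 894 and 615 CPM to 213, 308 and 223 CPM (-1.41 on the log2 scale with SE 0.28 and edgeR adjusted p = 0.000118). Leaving out replicates 1, 2 and 3 in turn gave 14, 38 and 18 members for 4 h, and for 8 h it gave 27, 49 and 22 members.

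Between 1 h and 8 h 46 members differed (45.5% of all transcripts), 18 higher (21.5%) and 28 lower (24.1%) at 8 h. Between 8 h and 6720 min 52 did (47.8% of all), 37 higher (24.2%) and 15 lower (23.5%) at 6720 min. With library size only 34 were higher and 23 lower (7582 and 12079 of all transcripts). Both comparisons were chosen after the course of the summed share was seen. The first count was 24 without replicate 3 of all groups and 25 without replicate 2 of 1 h only, and the second was 29 without replicate 3. Without replicate 2 they were 42 and 55.

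At 16 h and later, as already at 2, 4 and 8 h, more members were higher than lower relative to 0 min. At 16 h 26 were higher and 17 lower, where 49.1% of all transcripts changed (23.7% up, 25.4% down). The members' numbers were 31 and 9 at 40 h, with 48.9% of all changed (23.6% and 25.3%). They were 41 and 9 at 64 h, with 48.3% of all changed (22.8% and 25.5%). By 6720 min they were 37 and 13, with 49.8% of all changed (24.0% and 25.8%). With library size only these times gave 28 and 24, 30 and 18, 34 and 18, and 32 and 26 members in the same order, so the majority was smaller. By then 73 members had changed at 1 or more light times (82.6% of all transcripts), and 27 at no single time. By 1 h the number was 12 (26.6% of all), by 8 h 46 (66.9%) and by 64 h 71 (80.0%). Leaving out replicates 1, 2 and 3 in turn gave totals of 28, 42 and 24 members for 16 h. For 40 h the totals were 31, 52 and 28, for 64 h they were 34, 60 and 29, and for 6720 min they were 37, 64 and 32.

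Ranks 100 and 97 rose most by 6720 min. Rank 100 went from 193, 293 and 241 CPM at 0 min to 652, 698 and 753 CPM (1.74 on the log2 scale with SE 0.22 and edgeR adjusted p = 8.89e-08). Rank 97 went from 272 ± 75.9 to 757 ± 42.0 CPM (1.68 on the log2 scale with SE 0.25 and edgeR adjusted p = 1.71e-06). Ranks 15 and 77 fell most, rank 77 from 824 ± 20.7 to 288 ± 43.8 CPM (-1.29 on the log2 scale with SE 0.15 and edgeR adjusted p = 2.35e-08). In each of these the 3 later libraries lay outside the range of the earlier ones.

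The comparison of 6720 min with control shows where the members ended. Of the 100, 22 differed (37.6% of all transcripts), 7 higher (19.3%) and 15 lower (18.3%). With library size only 13 were higher and 16 lower (7785 and 7118 of all transcripts). The total of members that differed was 10, 41 and 11 without replicates 1, 2 and 3 of all groups and 14 without replicate 1 of 6720 min only. The largest rise was that of rank 13, at 719, 1319.6 and 899 CPM in control and 2091, 1815 and 2572 CPM at 6720 min (1.15 on the log2 scale with SE 0.36 and edgeR adjusted p = 0.0118). The largest fall was that of rank 36, at 1440.2, 1527 and 1350.2 CPM in control and 478, 467 and 505 CPM at 6720 min (-1.57 on the log2 scale with SE 0.27 and edgeR adjusted p = 2.38e-05). Both pairs of groups were clear of each other. Rank 36 had been at 685 ± 147 CPM at 0 min, 1297 ± 99.8 CPM at 1 h and 676 ± 66.7 CPM at 16 h.

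**Figure D3:**
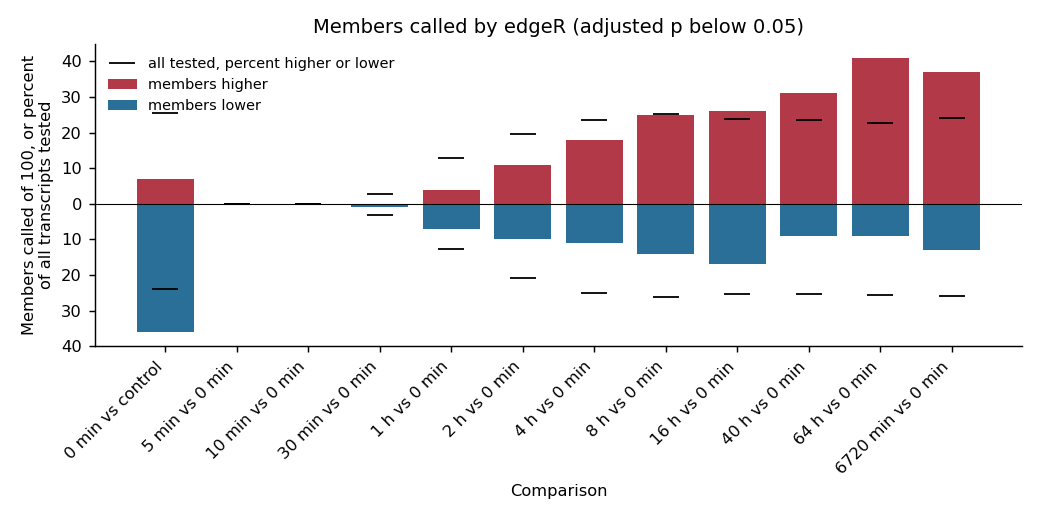
Members that rose (red, upward) or fell (blue, downward) at adjusted p below 0.05 (edgeR) in each comparison, out of 100. Black marks give the percentage of all 42181 transcripts tested that rose or fell in the same comparison. No member is called at 5 or 10 min, and 37 rises and 13 falls are called at 6720 min.

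Transcripts 698548994 (rank 4) and 698488881 (rank 8) are the 2 most abundant members that rose at 6720 min against 0 min with no overlap between libraries, and 698531837 (rank 15) and 698447946 (rank 21) the 2 most abundant that fell. In all, 34 members rose (18.7% of all transcripts) and 13 fell (25.3% of all) without overlap. Transcript 698548994 stood at 2128, 3821 and 2193 CPM at 0 min, 1982, 1248 and 1907 CPM at 8 h and 4103, 4112 and 4867 CPM at 6720 min. Replicate 2 was the highest library at 0 min and the lowest at 8 h. The rise to 6720 min was 0.88 on the log2 scale (SE 0.32, adjusted p = 0.0227, edgeR). Against control, at 2239.85, 3089.86 and 2424 CPM, the difference was 0.76 (SE 0.32, adjusted p = 0.0620, edgeR).

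Transcript 698488881 stood at 1844, 2502 and 2084 CPM in control and at 1050.3, 1608 and 1058 CPM at 0 min, a fall with no overlap (-0.99 on the log2 scale with SE 0.25 and edgeR adjusted p = 0.00138). At 30 min its libraries held 1123, 1307 and 1120.4 CPM, and the mean at 1 h was 1750.4 ± 368 CPM. At 8 h it was back at 1147 ± 55.2 CPM, and at 6720 min its libraries held 2631, 2049.6 and 2238 CPM (log2 1.09 against 0 min, SE 0.25, adjusted p = 0.000488, edgeR). Relative to control the difference at 6720 min was 0.10 (SE 0.25, adjusted p = 0.785, edgeR), with overlapping libraries.

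Transcript 698531837 had its highest mean at 0 min, with 1908, 1577 and 1692 CPM, against 1251, 1051 and 1175 CPM in control. The dark difference of 0.35 did not pass the test (SE 0.18, adjusted p = 0.106, edgeR) although the libraries did not overlap, and with library size only it was 0.57 (adjusted p = 0.00905, edgeR). The level was still 1658 ± 190 CPM at 8 h. From then on each later group mean was lower, with 1135 ± 176 CPM at 16 h, 941 ± 176 CPM at 40 h, 747 ± 23.6 CPM at 64 h and 592 ± 155 CPM at 6720 min. The difference at 6720 min was -1.32 against 0 min (SE 0.18, adjusted p = 3.95e-07, edgeR) and -0.97 against control (SE 0.18, adjusted p = 8.48e-05, edgeR).

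Transcript 698447946 kept to group means between 1030.2 and 1499 CPM from control through 40 h. Its replicate 2 stood at 1541 CPM at 0 min against 951 and 965 CPM in replicates 1 and 3, at 1962 CPM at 1 h against 1378 and 1157 CPM, and at 697 CPM at 8 h against 1504 and 1303 CPM. At 64 h the mean was 867 ± 247 CPM and at 6720 min 511 ± 111 CPM (log2 -0.96 against 0 min, SE 0.33, adjusted p = 0.0153, edgeR).

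The call of 698531837 at 6720 min against 0 min held under each alternative run. That of 698548994 was lost without replicate 1 (log2 0.77, adjusted p = 0.178, edgeR) or replicate 3 of all groups (0.55, adjusted p = 0.363, edgeR) and with only the 2 groups fitted (0.89, adjusted p = 0.111, edgeR). It was also lost without replicate 1 of 0 min (0.69, adjusted p = 0.117, edgeR), replicate 3 of 0 min (0.72, adjusted p = 0.109, edgeR) or replicate 3 of 6720 min (0.70, adjusted p = 0.121, edgeR). That of 698488881 was lost without replicate 3 of all groups (0.91, adjusted p = 0.0639, edgeR). That of 698447946 was lost without replicate 1 (-0.95, adjusted p = 0.0978, edgeR) or replicate 2 of all groups (-0.56, adjusted p = 0.0989, edgeR), and without replicate 2 of 0 min (-0.60, adjusted p = 0.158, edgeR) or replicate 1 of 6720 min (-0.80, adjusted p = 0.0887, edgeR).

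**Figure D4:**
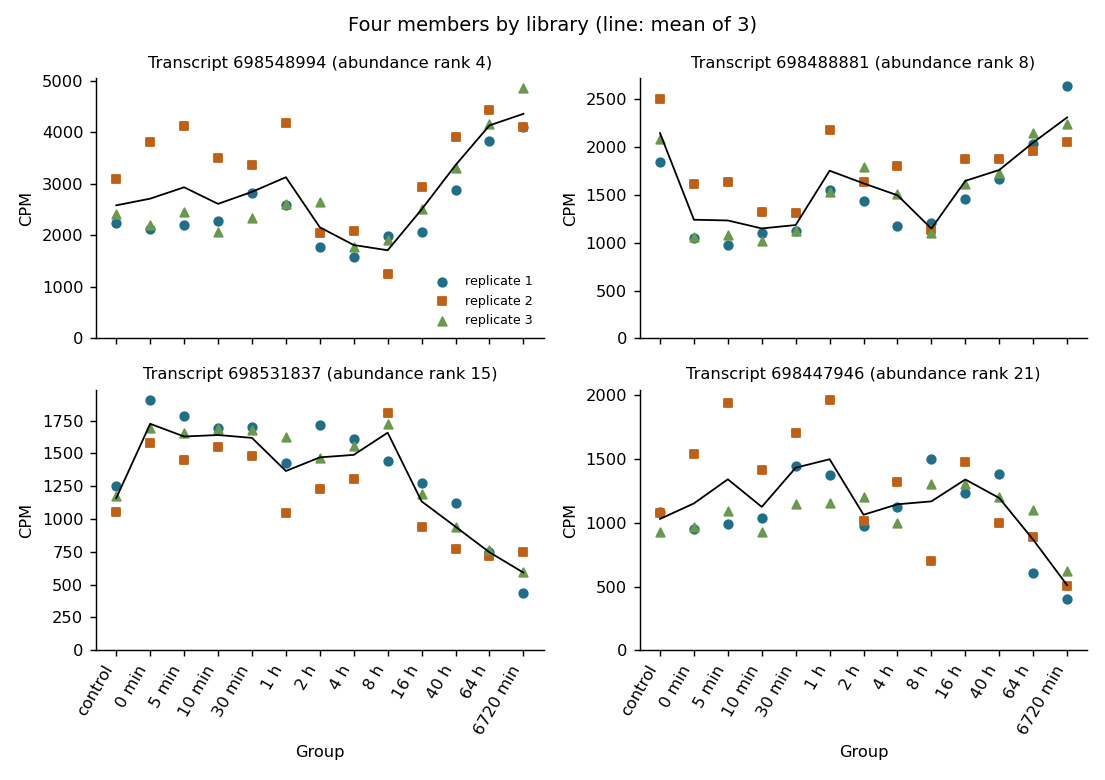
CPM (vertical axes, from 0) of 4 members in each of the 39 libraries by group (horizontal axes), with lines through the means of 3. At 6720 min the upper pair of transcripts stands above 0 min and the lower pair below it. Replicate 2 (squares) lies apart from replicates 1 and 3 in several early groups. At 8 h it lies below both in 698548994 and 698447946 only. In 698488881 it then lies between them, and in 698531837 replicate 1 is the one apart (1445 CPM against 1809 and 1720 CPM).

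The spread between libraries of a group is not independent of the choice, since the limit was set on means of the same libraries and a wide spread widens the range of means. It is given as a description. The coefficient of variation within groups had a median of 14.4% over the members, 18.2% over the 100 abundant transcripts beyond the range limit and 17.4% over all transcripts tested. Single members ran from 4.64% to 30.4%. The median over members was lowest at 64 h (7.83%) and highest at 0 min (21.2%). Without replicate 2 it was 8.59% for the members, 9.88% for the abundant transcripts beyond the limit and 12.2% for all tested, while leaving out replicate 1 gave 13.1% for the members and 15.4% for all tested. Without replicate 3 the order turned, with 16.4% for the members and 15.1% for all tested. It also turned for edgeR's biological coefficient of variation, which takes counting error off, with medians of 20.2% for the members and 16.4% for all tested. Counting error alone had medians of 0.797% and 9.06%. On the log2 scale the SD within groups had a median of 0.26, and for 75 of the 100 members the SD of the 13 group means was larger than it was within groups. The SD of group means holds part of the spread within groups and was bounded by the range limit, so this count is no test.

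Replicate 2 deviated in like manner across members in many groups. Relative to the mean of the other 2 libraries at 0 min, it was at least 1.5-fold higher in 33 members and as much lower in 3. Over all transcripts tested, replicate 2 was that much higher in 1969 and lower in 8563. Across the 100 members, its log2 deviation at 0 min correlated with that at 5 min (Pearson r = 0.94), 10 min (0.95), 30 min (0.88) and 1 h (0.89). The value was 0.69 with control, 0.38 with 2 h, 0.61 with 4 h, 0.86 with 16 h, 0.61 with 40 h and 0.63 with 64 h. With 8 h it was -0.48 and with 6720 min -0.50. These values describe single libraries that share members, and the members are not independent of each other. The 33 members stood above the other 2 libraries in replicate 2 in 33 of 33 cases at 5 min, at 10 min and at 1 h, and below them in 30 of 33 cases at 8 h. Of the other 67 members, 37, 41 and 26 stood above at these early times, and 40 stood below at 8 h.

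These 33 members also shared a course. They included 8 of the 10 most abundant members, and 30 of them had a lower mean at 8 h than at 1 h and a higher one at 6720 min than at 8 h, as did 13 of the other 67. Their summed share was 5.00% at 1 h, 2.92% at 8 h and 5.15% at 6720 min, a ratio of highest to lowest group mean of 1.76. The other 67 members ran between 4.41% at 6720 min and 5.05% at 8 h, a ratio of 1.15. Without replicate 2 the 33 held 4.17% at 1 h, 3.21% at 8 h and 5.40% at 6720 min, with the lowest mean at 4 h (2.87%) and a ratio of 1.89, and the ratio for the other 67 was 1.22. The course down and then up was then that of 27 of the 33 and 12 of the 67. At 0 min the 33 held 3.15, 5.64 and 3.17% of counts in replicates 1, 2 and 3, and the other 67 held 4.50, 4.68 and 4.66%. The split was made after the values were seen and was not tested, and the part of replicate 2 in the differences between groups was not tested beyond leaving it out.

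**Figure D5:**
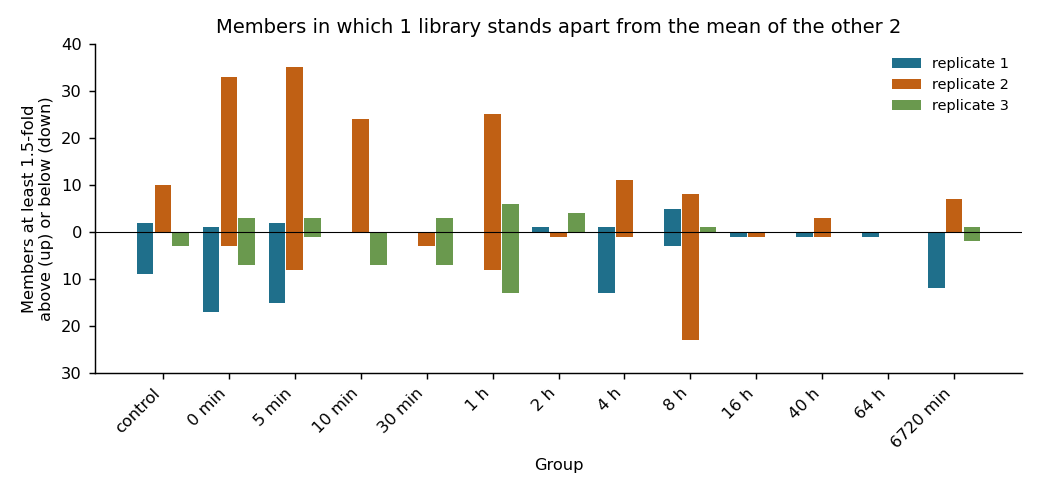
Number of the 100 members (vertical axis) in which a library was at least 1.5-fold above (bars up) or below (bars down) the mean of the other 2 libraries of its group, by group (horizontal axis) and replicate number (colour). Replicate 2 is above in 33 members at 0 min and 35 at 5 min, and below in 23 at 8 h.

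When the 100 transcripts were chosen with the libraries of 2 replicate numbers and measured in the remaining one, 92, 83 and 91 of them were members, for replicates 1, 2 and 3 held out. In the held-out libraries, with 1 library per group, the ratio of highest to lowest group had medians of 2.69, 2.60 and 2.44, and 63, 68 and 78 of the 100 stayed below 3. Of the 100 abundant transcripts beyond the limit, chosen in the same way, 3, 12 and 10 were below 3. The held-out summed share was 8.04 ± 0.71% at 8 h, 9.83 ± 0.61% at 64 h and 8.88 ± 2.11% at 0 min (mean and SD of 3 rotations). The 3 held-out values at 0 min ran from 7.55% to 11.3%, the widest but for 5 min.

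Members were not independent of each other. Over the 39 libraries the 4950 pairs of members had a median Pearson correlation of TMM-scaled log2 CPM of 0.17. Of these pairs, 467 (9.43%) were above 0.80 and 1848 (37.3%) were below 0. Among pairs of the abundant transcripts beyond the range limit the median was 0.075, and 17.3% were above 0.80. Within groups, after each group's mean was taken off, the median for the members was 0.39 and 77.0% of their pairs were above 0. A TMM factor moves all members of a library together, and its part in these values was not tested. The points share depth and groups. There were 4 pairs of members next to each other in the deposited order, with correlations of 0.97, 0.99, 0.999 and 0.99 (ranks 33 and 58, 35 and 49, 39 and 42, 75 and 81). Ranks 39, 42 and 43 followed each other at 0.999 in each pairing, also within groups, although rank 43 lies 28838 places from rank 42. Tobacco holds near-identical copies of many genes, and how reads matching more than 1 copy were counted is not stated in the labels. Such copies are therefore uncertain as separate members.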

How the data were processed

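RNA from 39 pooled leaf samples was sequenced as polyA libraries (TruSeq, single 100 bp reads), per the labels' protocols, whose extraction text otherwise describes another experiment. The deposited values are raw counts per transcript, per the file headers, and no normalization by the authors is visible in them. FastQC 0.10.1, BWA 0.70 and SAMtools 1.0 are named, without roles, per the submitters' processing notes. Reference, counting tool, strand setting and handling of multiply matching reads were not given in any source used here. A share of a library falls when other transcripts take more counts, so CPM are relative.

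The members and lists were chosen with earlier results of these data known. Analyses ran in R 4.3.3 with edgeR 4.0.16 (filterByExpr with minimum count 10 and minimum total 15, TMM scaling, quasi-likelihood test, 1 mean for each of 13 groups, all 39 libraries) and DESeq2 1.42.0 as an alternative. The code was tested on simulated data. SE is the log2 difference divided by the square root of F. Identifiers printed are the 2 most abundant members that rose and the 2 that fell at 6720 min against 0 min without overlap. Other members are given by rank: 1 to 10, the extremes of the range, and the 2 largest rises and falls per main comparison. Replicate numbers are shared between groups, and same-numbered libraries were correlated above 0.10 in all 3 pairs between 0 min and 5 min, 10 min, 2 h and 16 h.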

Additional observations from a re-analysis of the deposited data

Results flagged for a closer look

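Between 16 h and 6720 min, 27 members differed (31.1% of all transcripts did, 16.1% up and 15.0% down, edgeR, adjusted p below 0.05), which means that their change from 0 min was not the same at both times. Of these, 19 were higher and 8 lower at 6720 min. With library size only 17 were higher and 12 lower (4670 and 7970 of all transcripts). The direct contrast of both times was the test, and it uses group means that also chose the members. The count was 5 without replicate 1 of all groups, 55 without replicate 2 and 7 without replicate 3, with no share over all transcripts given for these fits. It was 10 without replicate 1 of 16 h, and 14 without replicate 3 of 16 h, replicate 1 of 6720 min or replicate 3 of 6720 min.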

How the results depend on the processing

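The alternatives changed which transcripts qualified and how many were called. A range limit of 2 kept 30 of the 100 members, a list of 50 kept 50, and the limit applied to single libraries kept 43, while TMM-scaled CPM kept 91. Leaving out a replicate number kept 83 to 92. The mean summed share was 4.67% of counts with a limit of 2, 11.7% with 4, 6.19% for 50 transcripts and 12.01% for 200. At 8 h these values were 4.48, 9.58, 5.49 and 11.3%, and at 64 h 4.94, 13.3, 6.90 and 13.05%. The difference between 64 h and 8 h was 0.463 points with a limit of 2, 3.70 with 4 and 2.87 with TMM-scaled CPM. At 64 h the share was 10.6% without the 10 most abundant non-members in the total and 10.7% with TMM-scaled CPM. Without 1 replicate number or library the mean share ran from 8.54 to 9.08%, that at 8 h from 7.77 to 8.34%, that at 64 h from 9.63 to 10.0% and their difference from 1.31 to 2.27 points. The causes were not tested.

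Over fits without 1 replicate number or library, the members called at 0 min against control ran from 24 to 53. Against 0 min they ran from 0 to 1 at 30 min, 3 to 19 at 1 h, 9 to 34 at 2 h, 14 to 38 at 4 h and 22 to 49 at 8 h. Later they ran from 24 to 43 at 16 h, 28 to 52 at 40 h, 29 to 60 at 64 h and 32 to 64 at 6720 min, and from 49 to 92 at any time. The last time gave 10 to 41 against control, 5 to 55 against 16 h and 29 to 55 against 8 h, and 8 h against 1 h gave 24 to 45. The median coefficient of variation ran from 8.59 to 16.4%. At 30 min library size only, DESeq2 and the replicate block gave 2 each (2034, 2802 and 3532 of all 42181 transcripts). The fit with replicate number as a block called 45 members at 6720 min against 16 h, 43 at 0 min against control and 62 at 6720 min against 0 min. Of all transcripts it called 15075, 22587 and 22675 in the same order. Apart from 30 min and 6720 min against 16 h the block moved no total of members by over 1.5 times. The members higher went from 4 to 9 at 1 h and from 7 to 14 at 6720 min against control, and from 19 to 35 at 6720 min against 16 h. Over all transcripts those higher went from 5472 to 6412, from 8144 to 9158 and from 6786 to 7985. Same-numbered libraries of all groups had a median correlation of 0.13 over 234 pairs, from -0.34 to 0.70. All 3 numbers were above 0.10 in 14 of 78 pairs of groups, so for most pairs of groups the numbers are not shown to pair the samples. Between 0 min and 5 min, 10 min, 1 h, 2 h or 16 h, however, 6 of 6 libraries correlated best with their own number, and 5 of 6 for 64 h. The main fit does not use such pairing. Each member had at least 2851 counts in every library. What limited the number of calls was not tested.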
